A study of Rattus norvegicus with 56 samples.

Results

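Sham cultures of rat hippocampal neurons were compared between early and late times after the handling of the dishes, to describe what changed in them without magnetic stimulation. The members were chosen by their labels. They were the sham arrays at 0 and 2 h (early, 8 arrays) and at 24 and 48 h (late, 6 arrays), which made 14 of the 56 arrays of the series. The cultures came from hippocampi of Sprague-Dawley rat embryos of stage E18 and grew in Neurobasal medium with the B27 supplement. A sham dish stood in an insulated incubator with the stimulation coil at a distance and then went back to its home incubator, so that the times count from the end of the sham period. The age of the cultures in vitro was not given. Sham arrays at 8 h (3 arrays) and arrays of cultures stimulated at 1 Hz or with intermittent theta bursts (iTBS) were used only for comparison.

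Neurons of the embryonic hippocampus continue to form axons, dendrites and synapses in the dish, and precursors of astrocytes taken along with them mature at the same time. Cold-inducible RNA-binding proteins follow temperature, the thioredoxin-binding protein Txnip follows glucose, and activity-regulated genes such as the Nr4a family follow calcium entry and growth factors. A bulk array measures RNA from all cells of a sample together, so fewer cells of a type and less RNA per cell cannot be told apart.

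The numbers in the sample descriptions fell into 4 series, numbers 1 to 18 (A), 22 to 36 (B), 37 to 54 (C) and those with the prefix D. Each series held 2 early arrays, and the late period held 1 array each of A and B and 2 each of C and D. The change is given as the log2 difference, late minus early, fitted with limma with the series as a block, and a probe passed at an adjusted p under 0.05. Levels are scaled log2 signals on which the mean of an array is 0. Nothing in the labels says that arrays came from separate cultures, so that p-values measure the spread between these samples, which may be technical. Between 69.5% and 78.0% of spots were well above background, no spot was saturated, and levels correlated between 0.938 and 0.995 in every pair of arrays. All 6 neuronal markers checked (Map2, Rbfox3, Tubb3, Syt1, Snap25 and Slc17a7) were well above background on all 14 arrays, and 0 of them passed.

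Of 30563 probes tested, 3429 (11.2%) passed, 1655 higher (5.42%) and 1774 lower (5.8%) at the late times, and 9062 had an unadjusted p under 0.05. Over genes with a symbol, each by its brightest probe, 1467 of 12451 (11.8%) passed. The changes that passed had a median size of 0.607, and the median over all tested probes was −0.04. With the deposited scores the split was 1193 higher and 2319 lower. The series had its own effect on 10644 probes (34.8%), and without the series in the model 244 probes passed.

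Slides and periods were nearly confounded, and this bears on every count that follows. Slides 1 and 3 held early arrays, slides 4, 6 and 7 held late arrays, and slides 2 and 5 held both, but from different series within each slide. With the slide as a block in place of the series, 0 probes passed (1926 unadjusted). Of the probes that had passed, 93.4% kept their side, against 68.4% of all tested probes. Those probes were chosen on the same arrays, so the higher share follows in part from the choice and cannot separate slide from period. The signal also moved with the period. The 75th percentile of the processed signal had a median of 6331 in the early and 4906 in the late arrays, and with it as a covariate 228 probes passed. The array of SHAM_48H replicate 1 is the sole late array of series A, and 1576 probes passed without it. The counts without the other arrays ran from 1205 (without SHAM_2H replicate 4) to 4473 (without SHAM_48H replicate 2).

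The probe with the smallest p of all belonged to Rbm3, a cold-inducible RNA-binding protein. This probe is not the brightest of the gene and was chosen after its values were seen. Its level ran from 4.63 to 6.07 (median 5.40) in the early arrays and from 2.98 to 4.22 (median 3.46) in the late arrays. The periods did not overlap, and it fell by 1.82 ± 0.16 (SE; limma adjusted p 0.00110). The difference was −2.34 in series A, −1.07 in B, −1.83 in C and −1.97 in D. At 8 h it was −0.26 ± 0.19 (SE) from the early level. With the slide as a block the difference was −1.58. It was −2.01 within slide 2 (late series A against early series D) and −1.27 within slide 5 (late D against early C). The brighter probe of the gene fell by 0.69 ± 0.15 (limma adjusted p 0.0172), and its periods overlapped. Cirbp, the other cold-inducible RNA-binding protein on the list, ran from 7.33 to 7.53 early and from 6.68 to 7.12 late. These periods did not overlap either, and Cirbp fell by 0.49 ± 0.10 (limma adjusted p 0.0152).

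**Figure D1:**
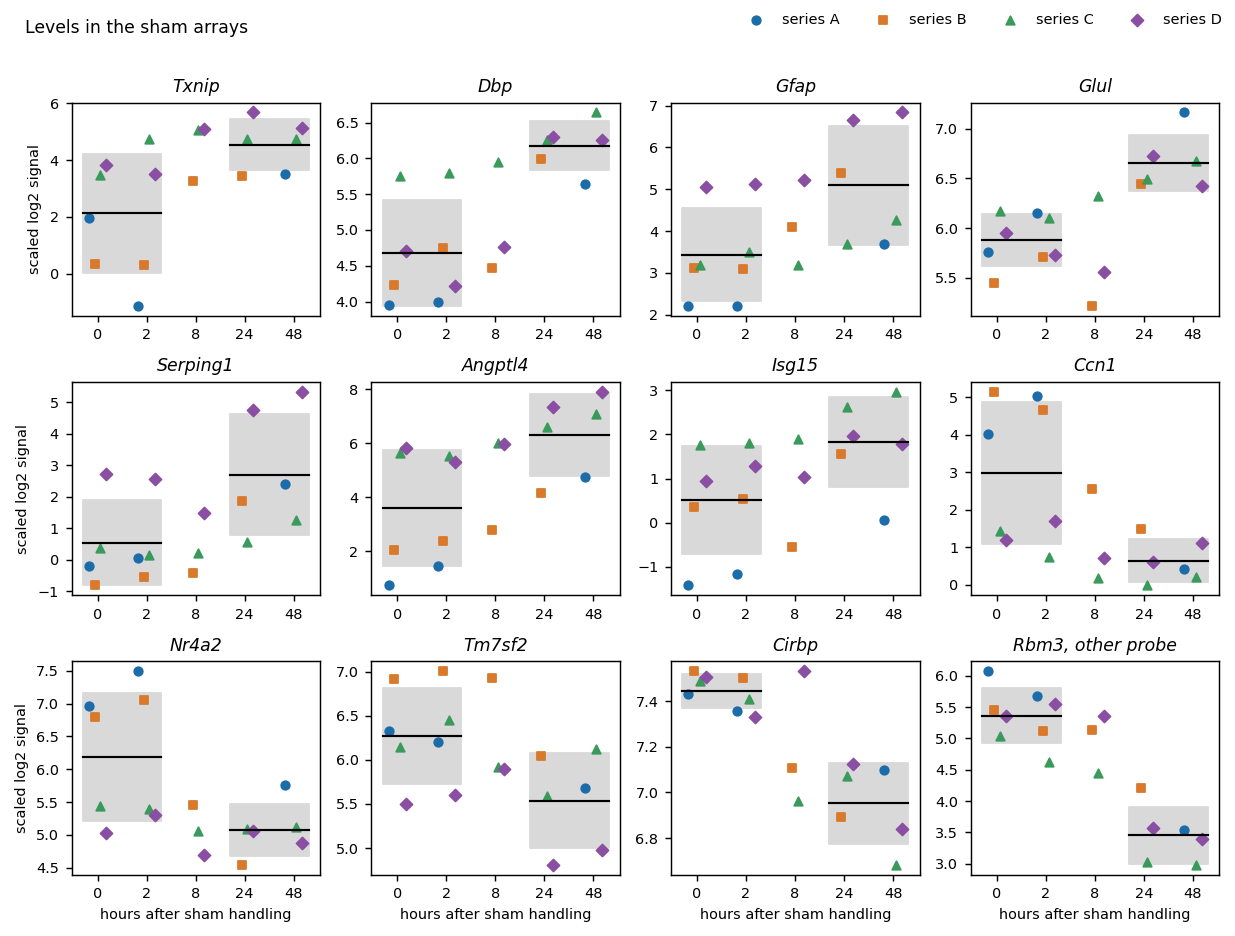
Scaled log2 signal of 12 genes on each sham array against the hours after sham handling (equal steps, not to scale), with 1 symbol and color per series. Lines and gray bands give the mean ± SD of the early and of the late arrays. For Rbm3, other probe, Cirbp and Glul no late array reaches the range of the early arrays.

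Txnip, which limits glucose uptake and binds thioredoxin, showed one of the largest increases. Its level ran from −1.14 to 4.74 (median 2.73) early and from 3.44 to 5.68 (median 4.73) late. The early arrays of series C and D lay as high as the late arrays of A and B, so that the periods overlapped. Txnip rose by 1.95 ± 0.48 (limma adjusted p 0.0265), by 3.08 in A and 3.12 in B but by 0.62 in C and 1.74 in D. Its paralog Arrdc4, an arrestin under the same glucose-sensing control, had a difference of +0.67 ± 0.21 that did not pass (limma adjusted p 0.0627). At 8 h Txnip was already 1.89 above the early level.

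Among the circadian clock genes, 1 of 16 rose and 1 fell (12.5%, near the 11.8% called over all genes), with a median of −0.19. Dbp, a clock output transcription factor, ran from 3.96 to 5.80 (median 4.47) early and from 5.64 to 6.65 (median 6.25) late. The early arrays of series C lay above the late array of A, and the periods overlapped there. Dbp rose by 1.38 ± 0.18 (limma adjusted p 0.00374), and its 2 tested probes both passed. Cry1, a repressor of the clock, fell by 0.58 ± 0.17 (limma adjusted p 0.0422), on the same side in 3 of 4 series.

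Astrocyte genes were higher at the late times. Of 18 listed genes tested, 10 rose and 1 fell (61.1% in all, against 11.8% called over all genes). Their median was +0.48, against −0.02 over all genes. Gfap, the intermediate filament of astrocytes, ran from 2.21 to 5.12 (median 3.15) early and from 3.70 to 6.84 (median 4.83) late. The values overlapped because series D was high throughout, yet Gfap was higher late within each series, and it rose by 1.45 ± 0.20 (limma adjusted p 0.00388). Glul, the glutamine synthetase that turns glutamate into glutamine in astrocytes, ran from 5.44 to 6.18 early and from 6.43 to 7.17 late. Its periods did not overlap, and it rose by 0.77 ± 0.13 (limma adjusted p 0.00733). The water channel gene Aqp4 also had periods that did not overlap, with 6.79 to 8.49 early and 8.61 to 9.42 late, and rose by 0.91 ± 0.21 (limma adjusted p 0.0223). Fabp7 (+0.72), S100b (+0.73), Apoe (+0.61), Atp1b2 (+0.65), Aldoc (+0.47), the glutamate transporter gene Slc1a3 (+0.57) and the gap junction gene Gja1 (+0.45) rose too. Aldh1l1, a folate enzyme of astrocytes, went the other way and fell by 0.63 ± 0.14 (limma adjusted p 0.0209). The number that rose was 6 under 75th percentile scaling, 4 under quantile normalization and 5 after normexp background correction. It was also 4 without SHAM_2H replicate 4 and 6 without SHAM_48H replicate 3, while the median stayed between +0.45 and +0.53 when any 1 array was left out.

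The astrocyte markers checked (Gfap, Aqp4, Aldh1l1, Slc1a3 and Gja1) had a mean level of 5.81 to 6.70 in the early and 6.63 to 7.23 in the late arrays. Their part in the other changes was not tested. None of the markers of interneurons, microglia, oligodendrocytes, endothelial cells or fibroblasts that could be tested passed. Csf1r of microglia was well above background on 1 of 14 arrays, Cldn5 of endothelial cells on 2 and Flt1 on 0. The mean level of the oligodendrocyte markers ran from 2.62 to 5.94 early and from 2.12 to 6.24 late, and that of the fibroblast markers from 1.59 to 5.53 and from 1.69 to 5.62. Of 11 microglia genes, 1 rose (9.09%, below the 11.8% called over all genes). Of 11 myelin genes, 0 passed. Of 10 genes of oligodendrocyte progenitors 1 rose (10%), Bcan (+0.46). Of 13 endothelial, mural and fibroblast genes 1 fell (7.69%), Vtn (−1.07), and 0 of 6 choroid plexus genes passed.

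Interferon-stimulated genes were higher as well. Of 17 tested, 5 rose (29.4%, against 11.8% called over all genes) and 0 fell. Their median was +0.49, and 16 had a positive difference. Isg15, a ubiquitin-like modifier, ran from −1.42 to 1.82 (median 0.75) early and from 0.05 to 2.97 (median 1.88) late. The series differed more than the periods, but Isg15 was higher late in each of them, by 1.35 in A, 1.12 in B, 1.01 in C and 0.77 in D. It rose by 1.03 ± 0.12 (limma adjusted p 0.00270). The transcription factor Irf1 rose by 0.65 ± 0.13, the immunoproteasome subunit gene Psmb8 by 0.78 ± 0.19 and Ifi27 by 0.49 ± 0.10. Relatives outside the list were among the leading genes, with Ifi27l2b at +1.81 ± 0.26 and Ifitm3, which blocks entry of viruses, at +1.51 ± 0.40. With the slide as a block, Isg15 (−0.42) and Psmb8 (−0.54) changed sign.

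Promoters of the interferon-stimulated genes are shown because these genes are known to share a response element. In the RefSeq promoter table of build GRCr8, 12 of the 17 genes had an entry (250 bases before to 50 bases after the start). In 7 of the 12 at least 1 promoter of the gene held GAAA, any 2 bases and GAAA again on either strand. Of all 33469 promoters, counted singly and not by gene, 3.92% held it, so the units differ. The motif was chosen with the values of these genes known, and a match is a description of the letters in the window. Of the 5 genes that rose, 3 had an entry. Ifi27 and Psmb8 held the motif, and Irf1 did not. The other genes that held it, Bst2, Gbp2, Irf7, Rsad2 and Tap1, did not pass. In the promoters below the matches are in capitals, 2 on the plus strand of Ifi27, chr6:128355062-128355361 (+), and 1 on the reverse strand of Psmb8, chr20:4656982-4657281 (−).
Ifi27: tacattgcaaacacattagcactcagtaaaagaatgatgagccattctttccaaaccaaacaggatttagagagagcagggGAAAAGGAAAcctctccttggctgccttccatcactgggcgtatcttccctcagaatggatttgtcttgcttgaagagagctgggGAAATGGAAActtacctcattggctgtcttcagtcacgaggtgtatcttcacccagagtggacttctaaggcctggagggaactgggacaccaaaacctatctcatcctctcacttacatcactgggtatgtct
Psmb8: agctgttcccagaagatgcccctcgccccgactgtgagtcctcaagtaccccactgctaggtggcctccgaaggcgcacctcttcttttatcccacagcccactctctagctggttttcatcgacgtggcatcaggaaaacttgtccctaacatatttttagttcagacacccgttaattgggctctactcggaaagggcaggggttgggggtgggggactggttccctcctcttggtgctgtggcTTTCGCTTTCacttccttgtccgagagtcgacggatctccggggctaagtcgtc

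Complement and inflammation genes gave 4 that rose and 0 that fell among 22 (18.2%, against 11.8% called over all genes). Their median was +0.25, and leaving out 1 array gave 1 to 4 that rose. Serping1, the C1 inhibitor of the complement cascade, ran from −0.78 to 2.72 (median 0.10) early and from 0.57 to 5.34 (median 2.14) late. It was highest in series D at all times and rose by 1.93 ± 0.27 (limma adjusted p 0.00415). The complement protease gene C1r rose by 0.64 ± 0.17, the adhesion molecule gene Vcam1 by 0.52 ± 0.13 and complement factor B (Cfb) by 0.77 ± 0.20. Cfb was well above background on 4 of 8 early and 3 of 6 late arrays.

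Antioxidant genes rose in 6 of 16 cases (37.5%, against 11.8% called over all genes) and fell in 0. Their median was +0.35, and 2 to 7 rose when 1 array was left out. With the slide as a block the median was −0.05. Gsta1, a glutathione transferase, ran from 2.85 to 5.97 (median 4.65) early and from 3.23 to 7.37 (median 6.63) late. The low late value was the array of series A. Gsta1 rose by 1.29 ± 0.21 (limma adjusted p 0.00659), by 0.31 in A and by 1.47 to 1.61 in the other series. Mt3, the metallothionein of the brain, rose by 0.70 ± 0.10, and Nqo1 (+0.81), Sod1 (+0.39), Gpx4 (+0.41) and Gsta4 (+0.41) rose too. With the slide as a block, Nqo1 changed sign (−0.32). Of 16 cytosolic heat shock genes 3 rose (18.8%, against 11.8% called over all genes). They were the inducible chaperone gene Hspa1a (+0.87), Chordc1 (+0.46) and Hspa8 (+0.67). Of 15 chaperone genes of the endoplasmic reticulum 0 passed. Of 24 genes of the integrated stress response 1 rose (4.17%), the serine synthesis enzyme gene Phgdh (+0.45).

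Angptl4, a secreted inhibitor of lipoprotein lipase, ran from 0.74 to 5.84 (median 3.85) early and from 4.15 to 7.92 (median 6.84) late. It was higher late in each series, by 1.25 to 3.66, and rose by 2.11 ± 0.28 (limma adjusted p 0.00374). The lipid droplet protein gene Plin4 rose by 1.62 ± 0.30. Among 25 genes of cholesterol synthesis and uptake 4 fell (16%, near the 11.8% called over all genes) and 0 rose. Their median was −0.49, and 3 of 25 had a positive difference. Leaving out 1 array gave 2 to 12 that fell, the most without SHAM_48H replicate 2. Tm7sf2, a sterol reductase of the pathway, ran from 5.50 to 7.01 (median 6.26) early and from 4.81 to 6.13 (median 5.63) late. The periods overlapped. Tm7sf2 fell by 0.63 ± 0.12 (limma adjusted p 0.0102), and Fdps, which makes farnesyl pyrophosphate, fell by 0.61 ± 0.18. The median of the list was −0.88 in series A, −0.91 in B, −0.67 in D and +0.30 in C.

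**Figure D2:**
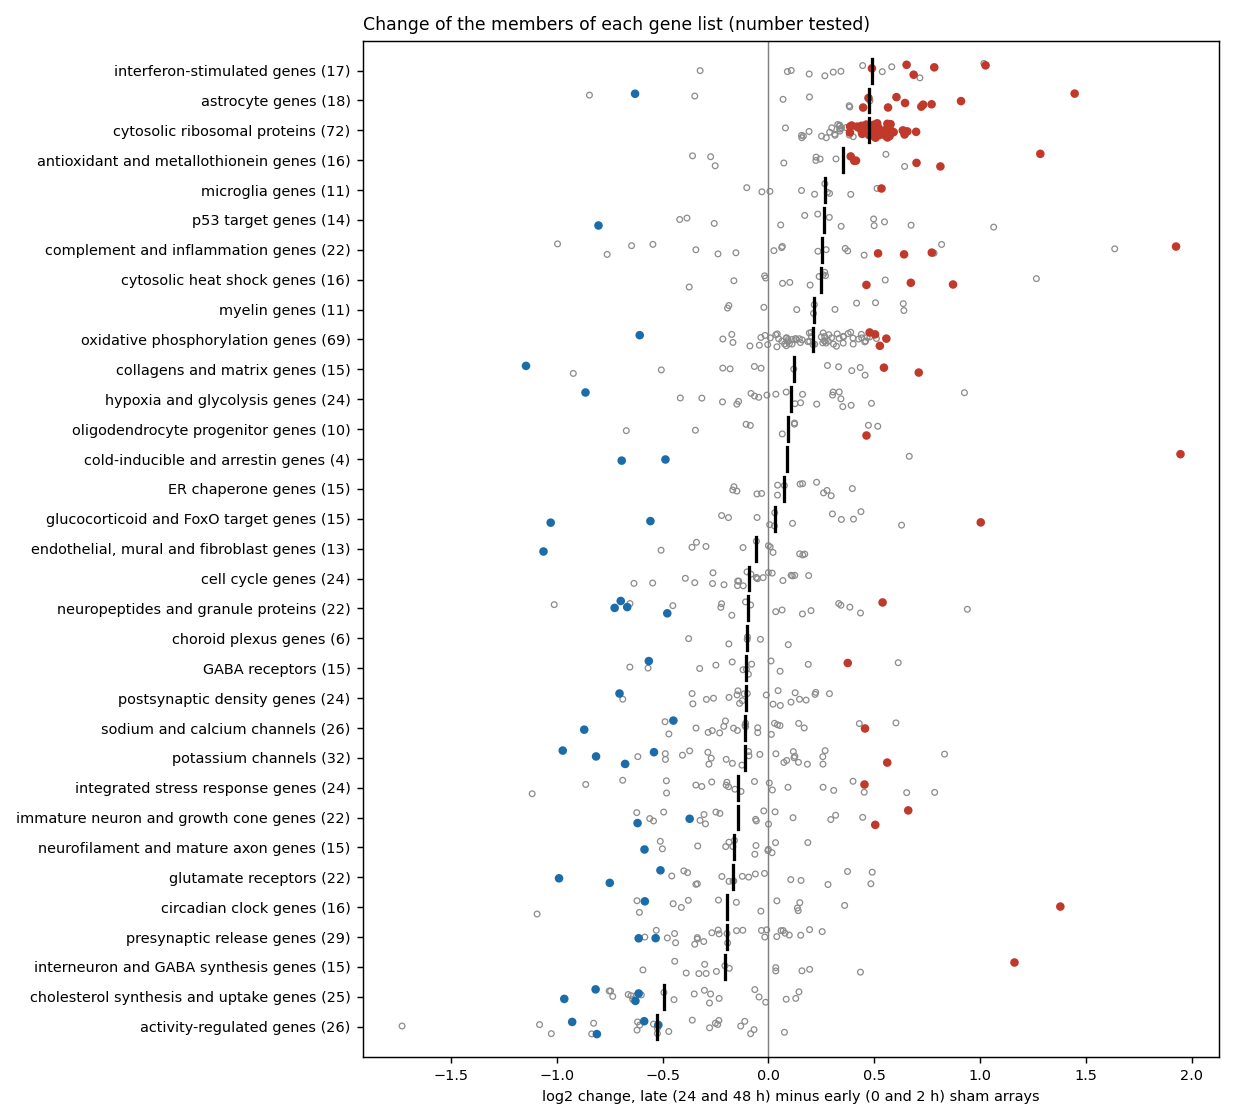
Log2 change, late minus early, of every tested member of the 33 gene lists, ordered by the median of each list (black bar). Filled points passed (red higher, blue lower) and open points did not. Interferon-stimulated genes (+0.49) and astrocyte genes (+0.48) lie at the top and activity-regulated genes (−0.52) at the bottom.

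Cytosolic ribosomal protein genes showed how far the scaling can decide a list. On the z-score scale 47 of 72 rose (65.3%, against 11.8% called over all genes) and 0 fell. The median was +0.47, and all 72 differences were positive. Rplp0 ran from 10.36 to 11.18 (median 10.97) early and from 10.95 to 12.22 (median 11.40) late. The periods overlapped, and the change was +0.64 ± 0.15 (limma adjusted p 0.0243). Under 75th percentile scaling, quantile normalization and normexp background correction 0 of the 72 passed, with medians of +0.26, +0.08 and +0.09, and 29 rose with the deposited scores. Leaving out 1 array gave 0 to 60 that rose, with 0 without SHAM_24H replicate 1, SHAM_2H replicate 4 or SHAM_48H replicate 3. In the stimulated cultures their median was −0.20. Of 69 genes of oxidative phosphorylation 4 were higher and 1 lower (7.25%, below the 11.8% called over all genes), with a median of +0.21. Under the other scalings 0 or 1 were higher.

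Activity-regulated genes were lower at the late times in part of the series. Of 26 tested, 4 fell (15.4%, near the 11.8% called over all genes) and 0 rose, and 1 had a positive difference, with a median of −0.52. Without SHAM_48H replicate 1, 0 of the 26 passed and the median was −0.24, without SHAM_24H replicate 3, SHAM_2H replicate 4 or SHAM_48H replicate 3, 1 passed, and without the series block 0 passed. Nr4a2, a nuclear receptor induced by activity, ran from 5.03 to 7.49 (median 6.12) early and from 4.54 to 5.75 (median 5.07) late. High early values came from series A and B. Nr4a2 fell by 0.93 ± 0.27 (limma adjusted p 0.0443), by 1.47 in A and 2.39 in B but by 0.32 in C and 0.20 in D. Nr4a3 fell by 0.81 ± 0.19, the phosphatase gene Dusp5 by 0.59 ± 0.14 and Rgs2, a regulator of G protein signaling, by 0.52 ± 0.14. The immediate-early genes Fos (−1.08 ± 0.67), Egr1 (−0.84 ± 0.56), Npas4 (−1.73 ± 0.84) and Bdnf (−1.03 ± 0.32) did not pass. The list had a median of −1.26 in series A, −1.13 in B, −0.00 in C and −0.11 in D. With the slide as a block its median was +0.38.

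In most neuronal lists the share that passed was near or below the 11.8% over all genes. Of 22 glutamate receptor genes 3 fell (13.6%) and 0 rose, with a median of −0.17. Grm3, a metabotropic receptor found on neurons and astrocytes, ran from 2.77 to 3.39 early and from 1.82 to 2.63 late, without overlap, and fell by 0.75 ± 0.14 (limma adjusted p 0.0113). The kainate receptor subunit genes Grik1 (−0.99 ± 0.17) and Grik2 (−0.51 ± 0.11) fell as well. Among 15 GABA receptor genes 1 rose and 1 fell, and the one that fell was Gabra4, by 0.57 ± 0.15. Of 15 interneuron genes 1 rose. It was Pvalb, the parvalbumin of fast-spiking cells, which ran from −2.997 to 0.81 (median −1.47) early and from −1.91 to 1.83 (median 0.43) late. The periods overlapped widely between series, but within series the differences were alike, 0.98 to 1.52, and Pvalb rose by 1.16 ± 0.16 (limma adjusted p 0.00374). It was well above background on 6 of 8 early and all 6 late arrays.

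Of 32 potassium channel genes 4 fell and 1 rose (15.6% in all), with a median of −0.11. Kcna1 fell by 0.97 ± 0.26, the auxiliary subunit gene Kcnab2 by 0.81 ± 0.14, Kcnq5 by 0.68 ± 0.14 and Kcnj4 by 0.54 ± 0.13, and Kcnip3 rose by 0.56 ± 0.16. Of 26 sodium and calcium channel genes (11.5% called) 1 rose (Scn2b, +0.46) and 2 fell (Cacng4, −0.87, and Cacna1h, −0.45). Of 22 neuropeptide and granule genes 1 rose and 4 fell (22.7% in all, above the 11.8% over all genes). The tachykinin precursor gene Tac1 (+0.54) rose, and the prohormone convertase gene Pcsk2 (−0.67) and Nptx1 (−0.73) were among those that fell. Of 29 presynaptic genes 2 fell (6.9%), with Unc13b (−0.61) among them, of 24 postsynaptic genes 1 fell (Baiap2, −0.71), and of 15 neurofilament and axon genes 1 fell (Nefh, −0.59). Growth cone genes gave 2 of 22 in each direction on the z-score scale (18.2% in all). They gave 0 higher and 5 lower under 75th percentile scaling and quantile normalization, 0 and 6 after normexp and 1 and 6 with the deposited scores. In the stimulated arrays 14 of the 22 passed, all lower. Dcx, a microtubule-associated protein of young neurons, fell by 0.37 ± 0.10 and Dpysl3 by 0.62 ± 0.15, while the tubulin genes Tuba1a (+0.66 ± 0.16) and Tubb2b (+0.51 ± 0.15) rose. Tubb2b was at −0.01 under quantile normalization. Of 24 cell cycle genes 0 passed.

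Among targets of glucocorticoids and FoxO factors, 1 of 15 rose and 2 fell (20% in all, against 11.8% called over all genes). The repressor gene Bcl6 ran from 3.41 to 4.70 early and from 4.93 to 5.76 late, without overlap, and rose by 1.00 ± 0.22, while Zbtb16 fell by 1.03 ± 0.18 and the kinase gene Sgk1 by 0.56 ± 0.16. Of 24 hypoxia and glycolysis genes 1 fell (4.17%), the hexokinase gene Hk2 (−0.87 ± 0.24). Of 14 p53 targets 1 fell (7.14%), Plk3 (−0.80 ± 0.22). Of 15 collagen and matrix genes 2 rose and 1 fell (20% in all). The matrix protease gene Mmp2 (+0.71) and the laminin chain gene Lama5 (+0.55) rose. Tnc, the tenascin of immature matrix, fell by 1.15 ± 0.27.

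The leading genes were the 12 in each direction with the largest change among genes that passed and lay on the same side in all 4 series, which fixes that agreement between series. Within slide 2, 12 of the 24 kept their side, all of them decreases. The leading increases were negative there (Ifi27l2b −3.72, Mgp −1.83, Txnip −0.03). Within slide 5, 22 of the 24 kept their side. The first of the leading increases was Mgp, which encodes the calcification inhibitor matrix Gla protein. Its level ran from −1.13 to 6.03 (median 0.24) early and from −1.003 to 8.83 (median 4.71) late. The series differed widely, and the change of +2.58 ± 0.57 (limma adjusted p 0.0178) was made of +2.54 in A, +5.77 in B, +0.42 in C and +2.63 in D. Further increases were those of Htatip2, an oxidoreductase gene (+1.63 ± 0.22), the glycoprotein gene Gpnmb (+1.63 ± 0.37), Nat8f5 (+1.52 ± 0.40) and the calcium-binding S100a6 (+1.49 ± 0.29). S100a6 was well above background on 5 of 8 early and on all 6 late arrays.

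Of the leading decreases, 4 had signal well above background on all 14 arrays, those of Ccn1, Has2, Mepe and Asgr1. Ccn1, a matricellular protein gene induced by serum and stretch, ran from 0.74 to 5.15 (median 2.85) early and from −0.02 to 1.49 (median 0.51) late. High early values came again from series A and B, and Ccn1 fell by 1.98 ± 0.46 (limma adjusted p 0.0213). Has2, a hyaluronan synthase, ran from 0.61 to 4.20 (median 2.79) early and from −0.59 to 1.73 (median 1.19) late. The periods overlapped, and Has2 fell by 1.57 ± 0.25 (limma adjusted p 0.00655). Mepe fell by 1.44 ± 0.17 and Asgr1 by 1.43 ± 0.33. The other 8 had signal well above background on all 8 early arrays and on 2 to 4 of 6 late arrays. They entered the test through the early arrays, and with most or part of their late values near background the differences are a description of those signals. They were Tmem89 (−2.30 ± 0.33), the glucose transporter gene Slc2a2 (−1.82 ± 0.47), the chemokine receptor gene Ccr7 (−1.77 ± 0.23), Or2k2 (−1.73 ± 0.30), Bfsp2 (−1.67 ± 0.21), Ctrc (−1.63 ± 0.40), LOC102547697 (−1.59 ± 0.40) and Slc26a3 (−1.47 ± 0.36).

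**Figure D3:**
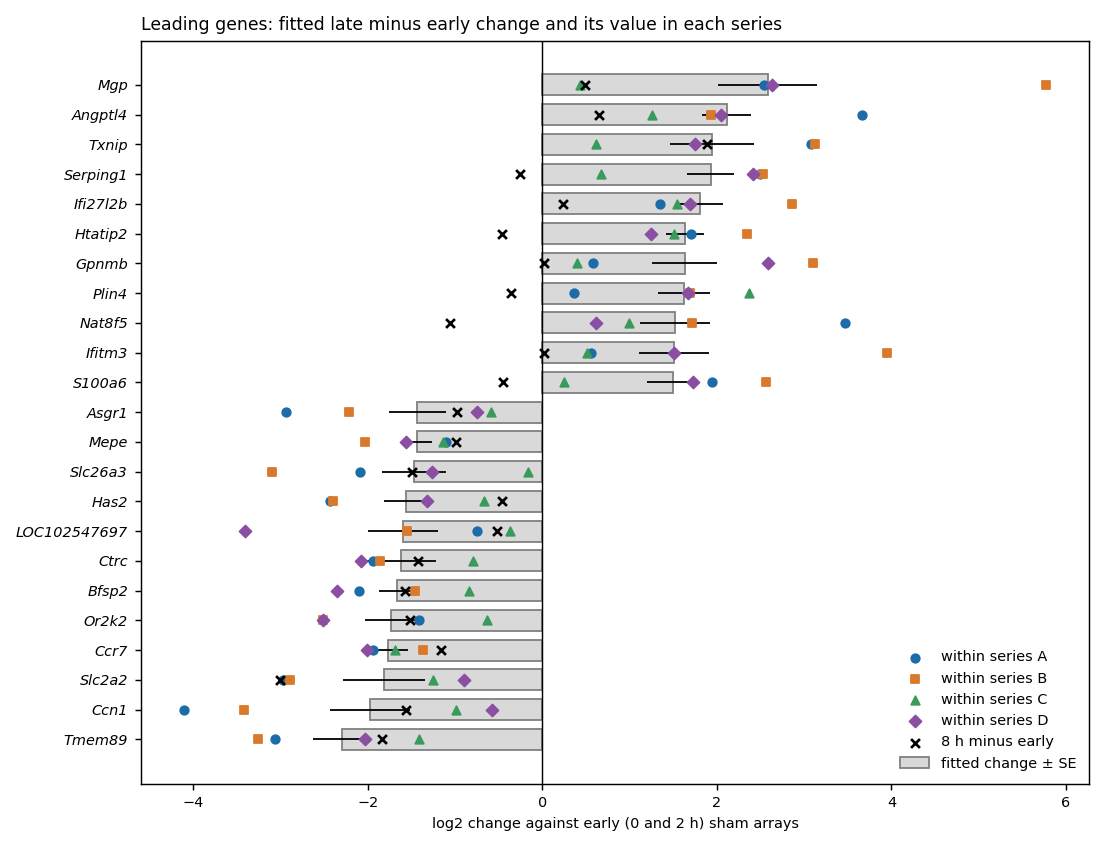
Fitted log2 change, late minus early, of 23 of the 24 leading genes (bars ± SE), with the difference within each series of sample numbers (colored symbols) and the difference of the 8 h sham arrays from early (crosses). By the rule that chose these genes all colored symbols lie on the side of the bar. Series C lies nearest to 0 for most genes.

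Over the probes that passed, the median difference in the direction of the fitted change was 0.797 in series A, 0.683 in B, 0.693 in D and 0.317 in C. The probes and their direction were chosen on these same arrays, and whether the series differed was not tested. Series A and B had 1 late array each, at 48 h and at 24 h, so series, time and single array cannot be told apart there. The times within each period were compared next. Between 2 and 0 h, 0 probes passed (486 unadjusted), and between 48 and 24 h, 0 passed (736 unadjusted), in both cases by limma. Against the early period 18 probes passed at 24 h (0.0589%; 2 higher and 16 lower) and 191 at 48 h (0.625%; 132 higher and 59 lower). Over the probes that had passed in the pooled comparison, the median difference from early was 0.597 at 24 h and 0.623 at 48 h. The arrays at 8 h entered neither period, and their difference is taken from the same early arrays as the late one. Of the probes that had passed, 82.2% lay on the late side at 8 h, with a median ratio of 0.443 to the late change. Of the 24 leading genes 18 lay on that side. The difference at 8 h was small or opposite for Serping1 (−0.26), Plin4 (−0.36) and Gfap (+0.34). It was closer to the late one for Txnip (+1.89) and Ccn1 (−1.56).

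Stimulated cultures at the same times were set beside the sham cultures. In the 27 stimulated arrays (13 early and 14 late), fitted on their own with protocol and series as blocks, 8212 probes (26.9%) passed. Of the sham calls, 60% passed in the same direction there, and these made 25.1% of the calls in the stimulated arrays. Among the 24 leading genes 22 passed in the same direction, and the exceptions were Tmem89 (−0.61 ± 0.46) and LOC102547697 (−0.50 ± 0.21). Gfap rose by 1.59 ± 0.16 in the stimulated cultures, Dbp by 1.55 ± 0.15, Txnip by 2.02 ± 0.35 and Isg15 by 1.32 ± 0.20, and the other probe of Rbm3 fell by 1.64 ± 0.13. Of the 17 interferon-stimulated genes 13 passed, all higher, and of the 25 cholesterol genes 17, all lower. Of the 18 astrocyte genes 9 passed, 8 of them higher, and the list median was +0.25, against +0.48 in sham.

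In the fit of all 55 arrays, 0 probes passed for the difference in change between stimulated and sham cultures (limma; 3645 unadjusted). The 3 genes with the smallest p all had an adjusted p of 0.171. Rps28, a ribosomal protein gene, had a difference of +0.55 ± 0.16 in sham and of −0.23 ± 0.12 in stimulated cultures, Rps27 of +0.56 ± 0.17 and −0.27 ± 0.13, and the organic anion transporter gene Slc22a7 of −1.35 ± 0.24 and −0.12 ± 0.18. Outside that fit, sham and stimulated arrays were also fitted on their own. There the 72 ribosomal protein genes had a positive difference in 72 cases in sham and in 7 cases in stimulated cultures. The sham side of this count depends on the scaling. Under 75th percentile scaling, quantile normalization and normexp background correction 0 of the 72 passed in sham. With 0 probes passed for the difference in change, no opposition between sham and stimulated cultures is concluded from these genes.

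**Figure D4:**
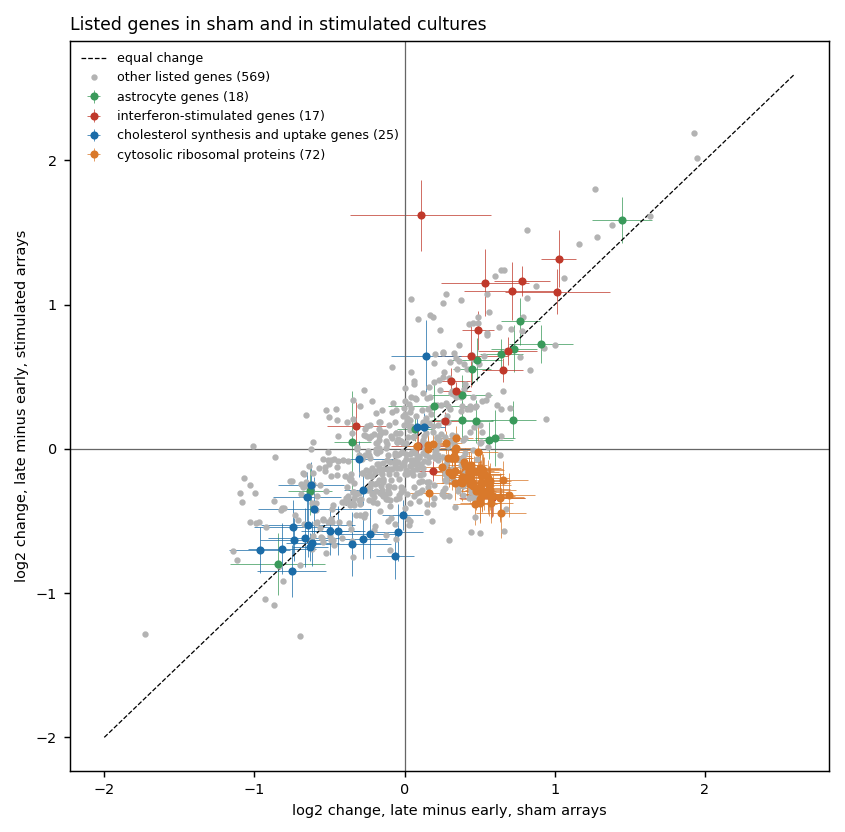
Log2 change, late minus early, of the listed genes in the 27 stimulated arrays against that in the 14 sham arrays, with 4 lists in color (error bars SE) and the others in gray. The dashed line marks equal change. Medians in sham and in stimulated arrays were +0.49 and +0.64 for interferon-stimulated genes and −0.49 and −0.57 for cholesterol genes. For astrocyte genes they were +0.48 and +0.25. Cytosolic ribosomal protein genes lie right of 0 and, in the stimulated arrays, mostly below 0. Their place on the sham axis depends on the scaling.

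**Figure D5:**
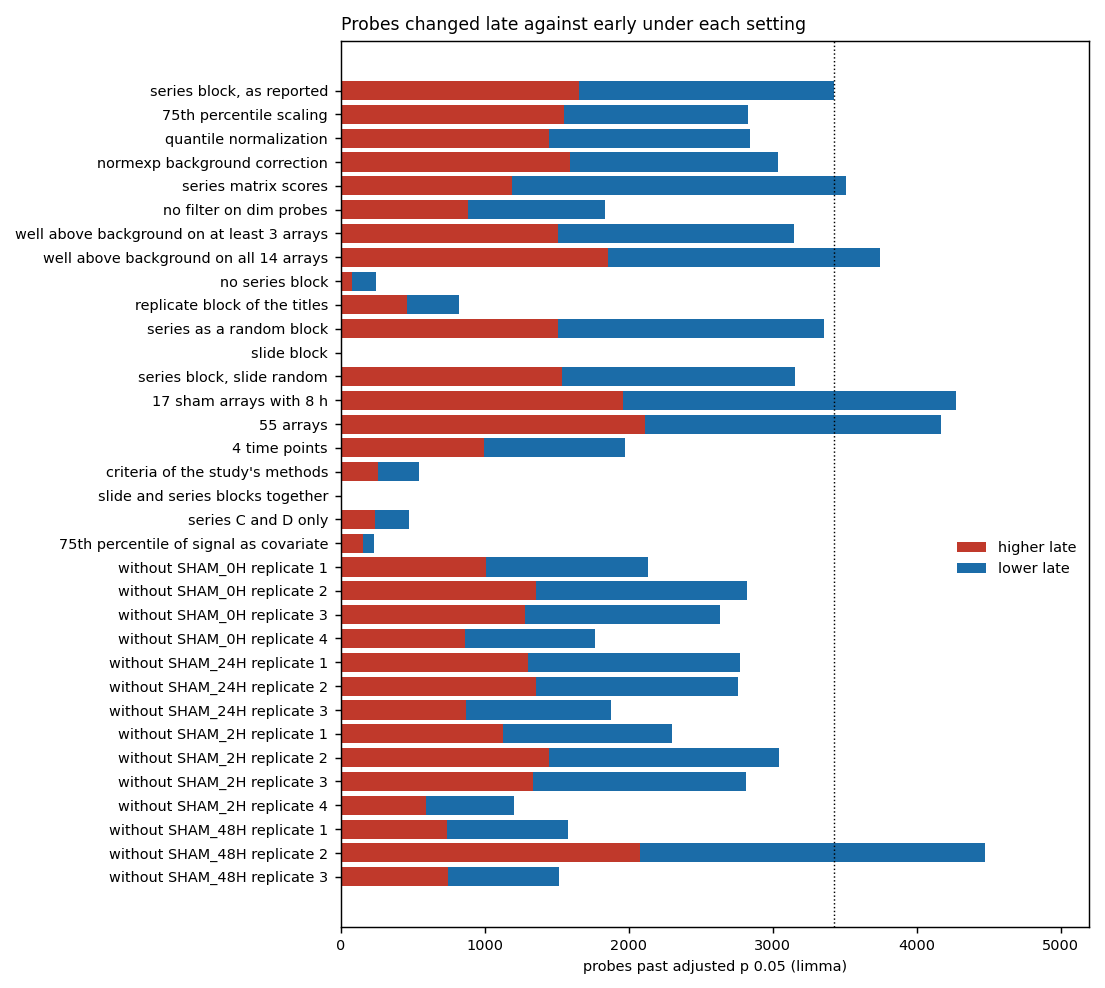
Number of probes past an adjusted p of 0.05 (limma) for late against early sham arrays under each setting, split by direction. The dotted line marks the 3429 probes of the reported fit, and the slide block gave 0.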

How the data were processed

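RNA of each sample was hybridized to a 1-color Agilent rat array of 45598 probes. The deposited scanner files held the processed signal as an intensity per spot, made by the authors with Agilent Feature Extraction 12.0.3.1. The authors also deposited a score per probe, the z-score of the log10 signal within an array, which served as an alternative. Its scale and centring were found by setting it against the scanner values. From the deposited intensities, outlier spots were left out, spots of a probe were averaged, and log2 signals were turned into z-scores within an array and multiplied by the median SD of 4.06. Probes well above background on at least 6 of the 14 arrays were tested (30563). Late minus early was fitted with limma 3.58.1 in R 4.3.3 with the series of sample numbers as a block, with Benjamini-Hochberg adjustment, and the procedure was tested on simulated data. Gene symbols came from RefSeq accessions and covered 46.3% of probes, and a gene with several probes was read from its brightest one. The number of arrays limits the precision.

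Named were up to 12 genes in each direction with the largest change among those past an adjusted p of 0.05 with signal well above background throughout a period and on the same side in all 4 series, up to 4 members of each list with the smallest p, and the 3 genes with the smallest p in the other contrasts. Other named list members and the second probe of Rbm3 were chosen after their values were seen. The members and lists were chosen with earlier results of these data known. Alternatives were other scalings, filters, blocks and samples, and leaving out each array. Some genes that the rule names are not reported here. One stimulated array with a misplaced grid (1 Hz, 2 h, replicate 2) was left out.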

Additional observations from a re-analysis of the deposited data

Results flagged for a closer look

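In 9 of 206 sets of a named gene in a period, 1 array stood far from the others, with a gap to the nearest array that took up more of the range than Dixon's criterion allows. Chance gives about 1 in 20, or 10.3 sets. In 6 of the 9 the array was SHAM_48H replicate 1, the sole late array of series A. It was the lowest late array for Nqo1 (level 1.85, next 3.83, gap 0.708 of the range), Lama5 (3.35, next 4.30, gap 0.702), Folr1 of the choroid plexus list (−1.69, next 0.45, gap 0.673) and C1r (0.89, next 2.46, gap 0.637). It was the highest late array for Nefh (0.57, next −1.001, gap 0.817) and Nr4a3 (5.08, next 4.52, gap 0.640). Among the early arrays, SHAM_2H replicate 3 was highest for Ccr7 (0.48, next −0.73, gap 0.531) and lowest for Sdf2l1, a chaperone cofactor of the endoplasmic reticulum (4.10, next 4.63, gap 0.587). SHAM_2H replicate 2 was lowest for Or2k2 (−2.75, next −1.62, gap 0.573).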

How the results depend on the processing

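The 3429 probes that passed (1655 higher, 1774 lower) became 1837 (886 and 951) without the filter on dim probes, 1976 (994 and 982) with 4 time points, 543 (256 and 287) by the criteria of the study's methods, and 244 (80 and 164) without the series block. Without that block 0 probes passed at 24 h, 1 at 48 h and 3144 in the stimulated arrays of the 55-array fit, and the glucocorticoid and FoxO median was 0.24. With a replicate block on the title numbers, 822 passed (459 and 363), and medians were 0.23 for interneuron, 0.19 for neuropeptide, −0.0596 for presynaptic, −0.00851 for postsynaptic, −0.54 for oligodendrocyte progenitor, 0.44 for cold-inducible and arrestin, and 0.68 for interferon genes. Arrays of the same title number correlated in their deviations by −0.514 to 0.813 (mean 0.153), and some of them also shared a series. Arrays of the same series and different groups had a mean of 0.495.

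With the slide block 0 probes passed (0 higher, 0 lower), and signs turned for Dusp5 (0.25), Gabra4 (0.0107), Cacng4 (0.0188), Dpysl3 (0.0824), Nefh (0.12), Sdf2l1 (−0.31), Zbtb16 (0.00678), Nqo1 (−0.32), Vcam1 (−0.18), C1r (−0.40), Isg15 (−0.42), Psmb8 (−0.54) and Lama5 (−0.22). Medians became 0.38 for activity-regulated, 0.0943 for glutamate receptor, 0.0684 for GABA receptor, 0.25 for interneuron, 0.14 for neuropeptide, 0.10 for sodium and calcium channel, 0.16 for presynaptic, 0.0862 for neurofilament, −0.40 for oligodendrocyte progenitor, −1.37 for myelin, −0.63 for endothelial, −1.34 for choroid plexus, −0.0482 for antioxidant and 0.19 for interferon genes. Normexp gave medians of −0.11 for interneuron and 0.0894 for ribosomal genes, and quantile normalization 0.0817 for ribosomal genes and −0.00974 for Tubb2b.

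Of the alternatives added after seeing the data, slide and series blocks together gave 0 probes (0 and 0; 2633 unadjusted), series C and D alone 473 (239 and 234), and the 75th percentile as a covariate 228 (157 and 71). Leaving out each array gave 1205 to 4473 probes, 590 to 2078 higher and 615 to 2395 lower, and the count fell by over 1.5 times without SHAM_2H replicate 4 (1205), SHAM_0H replicates 1 (2132) and 4 (1769), SHAM_24H replicate 3 (1875) and SHAM_48H replicates 1 (1576) and 3 (1513). Medians then ran from −0.23 to −0.10 for interneuron, −0.17 to 0.0390 for neuropeptide and −0.24 to −0.0704 for presynaptic genes, and also from −0.66 to −0.24 for activity-regulated, 0.04 to 0.49 for microglia, −0.33 to 0.02 for cell cycle and −0.27 to 0.26 for integrated stress response genes. The cause of these shifts was not tested.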
